A study of Mus musculus with 4 samples.

Results

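The integrin, laminin and cadherin genes of CT26 cells were examined, as the receptors, matrix proteins and junction proteins by which a carcinoma cell holds on to its matrix and to its neighbours. Members were defined by the start of the gene symbol. They are integrin alpha and beta subunits (Itga or Itgb), laminin chains (Lama, Lamb or Lamc with a digit) and cadherins (Cdh with a number). These families, and the lists of genes used below, were chosen with earlier results of these data known. Of the 21677 gene symbols of the table, 34 are members: 10 alpha integrins, 8 beta integrins, 8 laminins and 8 cadherins. Itgb1bp1, Itgb1bp2 and Itgb3bp share the start of the name but encode no integrin and were not counted. The annotation (GENCODE M21, GRCm38) holds 61 protein-coding genes of these families, and the 27 without a row in the table, among them Itgav, Itga3, Cdh1 and Lama4, were not analysed here.

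CT26 is a mouse colon carcinoma cell line. Bulk RNA was sequenced from 2 Control libraries (S17 and S19) and 2 libraries of cells that lack iRhom1 (S18 and S20), an inactive rhomboid protein encoded by Rhbdf1 that helps the sheddase ADAM17 to mature. The knockout line was made with a lentiviral CRISPR-Cas9 vector and grown from a single clone, neither group received a treatment, and the labels call the other group only Control. The study names WT cells as the comparator of its RNA-seq, although it also made a Cas9 vector line without a guide. Since the knockout is 1 clone, a difference of clone and the loss of iRhom1 cannot be told apart. The study calls its RNA-seq representative of independent experiments, but neither it nor the labels say whether the libraries of a group are these experiments. The p-values therefore measure the spread between these libraries, which may be technical.

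Integrins are heterodimers of an alpha and a beta subunit that bind matrix proteins or cell surface ligands outside the cell and link to actin through talin and kindlin inside it. Laminins are trimers of an alpha, a beta and a gamma chain that form the sheet of the basement membrane, where they are bound by integrins that contain the subunit of Itga6. Classical cadherins join neighbouring cells by binding each other across the gap and are tied to actin by catenins. In colon epithelium E-cadherin, integrins and laminins keep cells polarised on their basement membrane, and a shift from E-cadherin to N-cadherin (Cdh2) is a known feature of carcinoma cells that take on a mesenchymal form.

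The sequences before the start sites of Cdh26, Lama5 and Itgb7 are shown because these genes had, among called members with a sequence, the largest rise, the only other rise and the largest fall. They are the 250 bases before the start site in RefSeq (GRCm38.p6), 5′ to 3′ on the strand of the gene. They lie at chr2:178430265-178430514 (plus strand) for Cdh26, at chr2:180225860-180226109 (minus strand) for Lama5 and at chr15:102231936-102232185 (minus strand) for Itgb7. Capitals mark E2-boxes (CAGGTG or CACCTG, the letters bound by Snail and Zeb factors) and GC boxes (GGGCGG or CCGCCC), searched on both strands.
Cdh26: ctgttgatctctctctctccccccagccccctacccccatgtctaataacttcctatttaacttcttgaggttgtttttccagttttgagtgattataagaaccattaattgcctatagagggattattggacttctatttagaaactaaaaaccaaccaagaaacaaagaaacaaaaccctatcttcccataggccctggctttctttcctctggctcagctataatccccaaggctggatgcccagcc
Lama5: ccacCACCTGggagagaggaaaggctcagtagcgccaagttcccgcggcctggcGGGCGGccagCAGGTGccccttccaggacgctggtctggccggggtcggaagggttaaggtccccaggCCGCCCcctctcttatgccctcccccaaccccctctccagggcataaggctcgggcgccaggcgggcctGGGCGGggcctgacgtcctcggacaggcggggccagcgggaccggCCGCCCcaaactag
Itgb7: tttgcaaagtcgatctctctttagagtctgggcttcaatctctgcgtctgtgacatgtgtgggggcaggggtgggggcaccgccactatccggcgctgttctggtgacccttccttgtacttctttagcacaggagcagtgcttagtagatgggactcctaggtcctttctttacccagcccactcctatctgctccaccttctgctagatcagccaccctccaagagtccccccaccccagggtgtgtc

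The window of Lama5 held 2 E2-boxes and 4 GC boxes, and those of Cdh26 and Itgb7 held none of either. E2-boxes were found in 17.2% and GC boxes in 32.7% of the 32851 windows of this length. No window of these 3 genes held the AP-1 letters TGANTCA (6.75% of all windows) or a TATA box (TATAAA on either strand, 12.4%). The GC content was 42.8% for Cdh26, 56.0% for Itgb7 and 72.4% for Lama5, against a median of 52.4% over all windows. Of the 9 members with a window and a level high enough to be tested, 6 held a GC box and 2, Lama5 and Itgb5, an E2-box.

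Rhbdf1, the targeted gene, was listed at 0.538 and 0.890 FPKM in Control and at 0.0940 and 0.0584 FPKM in iRhom1 KO. In 3 of the 4 libraries these values equal those of another row, Apobec2, so they are not a sound check of the knockout. No member shares its values with another row in this way. Of 14 markers of colon epithelium, 6 had a row and 3 were at 1 FPKM or more. Their summed level was 18.9 to 19.9 FPKM in Control and 36.9 to 38.0 FPKM in iRhom1 KO. The defining markers Vil1 and Cdx2 were at 0.00658 and 0.0229 FPKM in Control and at 0.00817 and 0.257 FPKM in iRhom1 KO. The 3 endothelial markers with a row summed to 2.93 to 3.07 FPKM in Control and 0.0490 to 0.0786 FPKM in iRhom1 KO, most of it Vwf, while Pecam1 was near 0 (means of 0.00403 and 0.00352 FPKM).

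The 3 tested beta subunits stood above both tested alpha subunits in level, and the most abundant member was Itgb1. FPKM are scaled by transcript length, so levels of different genes can be set side by side. By the mean of the 4 libraries the order was Itgb1 (141 FPKM), Itgb7 (45.5), Cdh26 (39.6), Itgb5 (26.6), Lamb1 (16.1), Itga6 (15.6), Lamc1 (15.4), Cdh2 (10.3), Lama5 (7.32), Lamb2 (6.48), Itga5 (3.44), Cdh24 (1.68) and Cdh13 (1.35). In Control Lamb1 and Lamc1 overlapped in level (15.8 to 16.1 and 15.5 to 16.1 FPKM), as they did not in iRhom1 KO (15.91 to 16.69 and 14.99 to 15.21 FPKM). These 13 members reached a group mean of 1 FPKM and were tested, and the other 21 lay below that level in both groups.

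**Figure D1:**
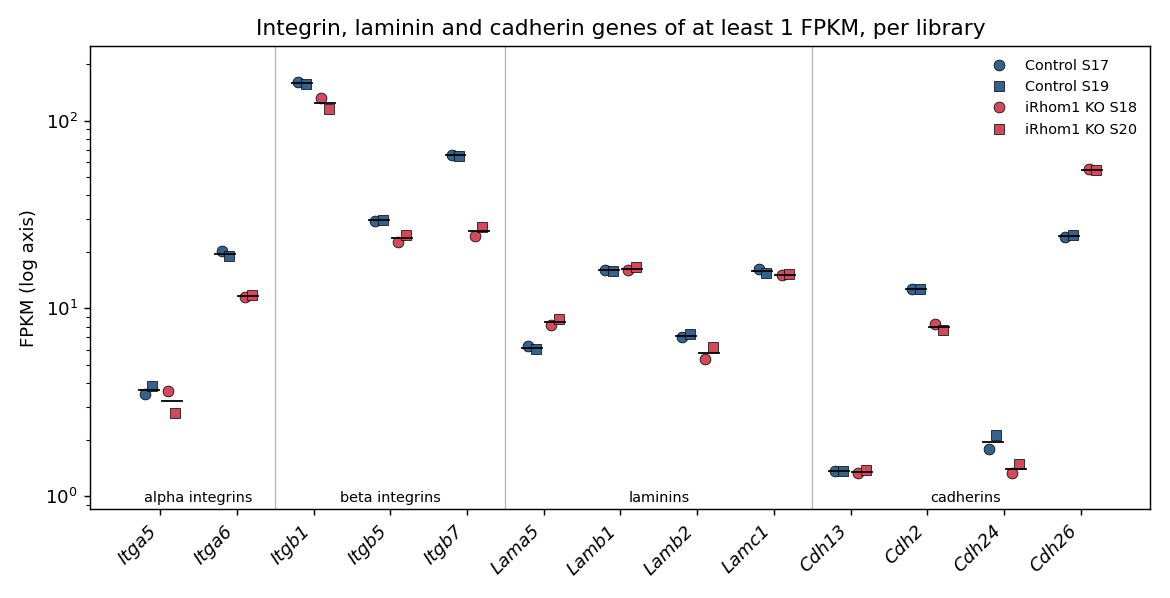
FPKM of the 13 tested members in each library, on a log axis. Points are libraries, blue for Control and red for iRhom1 KO, and bars are group means, with Itgb7 (65.3 against 25.7 FPKM) and Cdh26 (24.4 against 54.8 FPKM) farthest apart.

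In the knockout libraries 2 of the 13 tested members were called higher and 5 lower (limma, Benjamini-Hochberg adjusted p under 0.05). Over all 10271 genes tested, 10.7% were called higher and 21.9% lower. The log2 fold changes given here are iRhom1 KO minus Control on log2 of FPKM plus 0.5, a scale that understates the change of low genes. Their median was -0.28 over the 13 members and -0.10 over all genes tested. By class, 4 of 5 integrins were lower and none was higher (at an unadjusted p under 0.05 also 4 of 5, where 4820 of the 10271 genes differed in either direction), 1 of 4 laminins was higher, and of 4 cadherins 1 was higher and 1 lower. In bulk RNA fewer cells that express a gene and less RNA per cell cannot be told apart.

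Among the beta subunits Itgb7 showed the largest difference. Itgb7 (chromosome 15, 102215995 to 102231944, minus strand) pairs with the subunit of Itga4 in the receptor that guides lymphocytes to the gut, and with that of Itgae in a receptor for E-cadherin. It was at 65.8 and 64.7 FPKM in Control and at 24.3 and 27.2 FPKM in iRhom1 KO. The groups lay far apart, with means of 65.3 ± 0.749 and 25.7 ± 2.04 FPKM (SD, n = 2), and the mean of iRhom1 KO was 0.394 times that of Control. The log2 fold change was -1.33 (standard error 0.0780, 95% confidence interval -1.54 to -1.12, adjusted p = 0.00400 from limma). Its rank by size of log2 fold change was 163 of the 10271 genes tested. The median of the 410 tested genes of chromosome 15 was -0.32, and with chromosome medians subtracted Itgb7 was at -0.98 (adjusted p = 0.00741 from limma).

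The partners of Itgb7 were close to the floor of detection. Itga4 was at 0 and 0.00138 FPKM in Control and at 0 and 0.00212 FPKM in iRhom1 KO, about 1 estimated fragment in the highest library. Itgae was at 0.0803 and 0.0742 FPKM in Control and at 0.119 and 0.145 FPKM in iRhom1 KO, or 14.7 to 28.2 estimated fragments. The FPKM of Itgb7 were 820 and 873 times those of Itgae in Control and 204 and 187 times in iRhom1 KO. Itgb7 and Itgae are best known from lymphocytes, and of 9 leukocyte markers 5 had a row, with a summed level of 25.0 to 25.6 FPKM in Control and 12.7 to 12.8 FPKM in iRhom1 KO. Ptprc, which defines leukocytes, was near 0 in each group (means of 0.00510 and 0.00217 FPKM). So was Csf1r (0.00968 and 0.00338 FPKM). Cd14 (19.6 and 20.4 against 9.81 and 10.6 FPKM) and Cd68 (3.36 against 0.754 FPKM) carried most of the sum. Lyz2 was not called (1.92 against 1.83 FPKM, log2 fold change -0.08, adjusted p = 0.777 from limma). The part of these markers in the difference of Itgb7 was not tested.

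Itgb1 and Itgb5 were lower by less. Itgb1 (chromosome 8, 128685654 to 128733200, plus strand) is the partner of most alpha subunits for collagen, laminin and fibronectin, and Itgb5 (chromosome 16, 33829665 to 33949338, plus strand) forms a vitronectin receptor. Itgb1 was at 160 and 158 FPKM in Control and at 132 and 115 FPKM in iRhom1 KO. This is a log2 fold change of -0.36 (limma, standard error 0.0855, adjusted p = 0.0387). Itgb5 was at 29.3 and 29.7 FPKM in Control and at 22.6 and 24.6 FPKM in iRhom1 KO (-0.32, standard error 0.0702, adjusted p = 0.0340 from limma). Neither gene had overlapping groups, but in both the libraries of iRhom1 KO differed by more than those of Control.
The call of Itgb1 was lost without S17, S19 or S20 (adjusted p = 0.104, 0.0852 and 0.0662 from limma) and that of Itgb5 without S17, S19 or S18 (adjusted p = 0.117, 0.130 and 0.0621 from limma). With chromosome medians subtracted they were at -0.21 (adjusted p = 0.156 from limma) and -0.32 (adjusted p = 0.0554 from limma).

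The makeup of the beta subunits shifted with Itgb7. It held 25.7% and 25.6% of the summed FPKM of the 8 beta rows in Control and 13.5% and 16.1% in iRhom1 KO. The share of Itgb1 was 62.5% and 62.3% in Control and 73.3% and 68.5% in iRhom1 KO, although its own level was lower. Per library the ratio of Itgb7 to Itgb1 was 0.411 and 0.411 in Control and 0.184 and 0.235 in iRhom1 KO. The groups did not overlap in any of these values. With 2 libraries in each group the smallest two-sided p that exact permutation allows is 0.333.

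**Figure D2:**
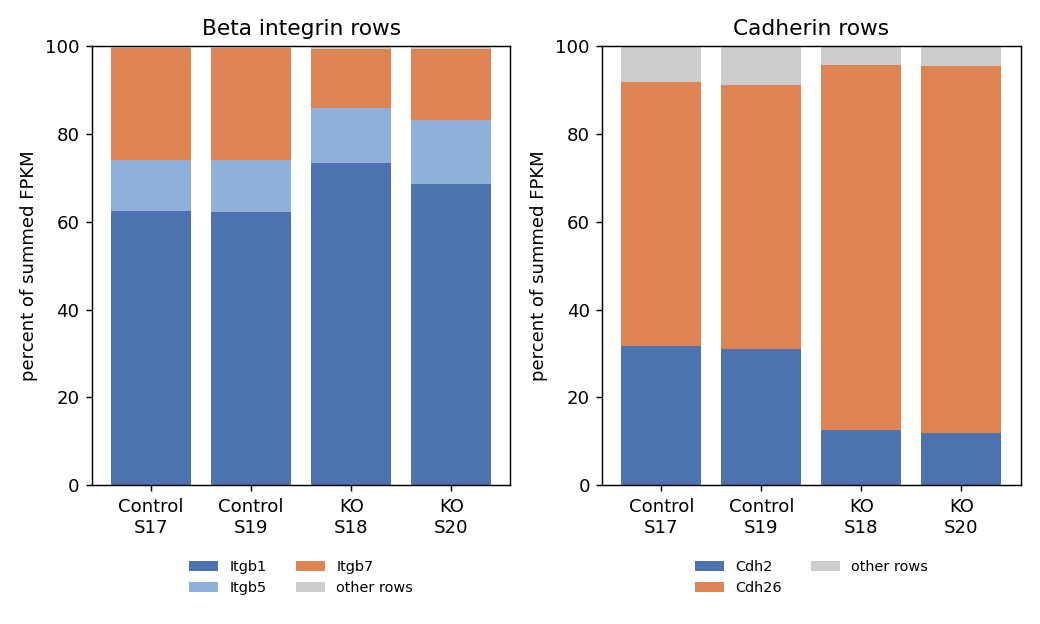
Share of the summed FPKM of the 8 beta integrin rows (left) and the 8 cadherin rows (right) in each library, in percent. Itgb7 takes 25.6% to 25.7% in Control and 13.5% to 16.1% in iRhom1 KO, and Cdh26 takes 60.1% in Control and 83.3% to 83.6% in iRhom1 KO.

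Of the alpha subunits Itga6 was lower and Itga5 was not called. Itga6 (chromosome 2, 71745616 to 71858416, plus strand) forms laminin receptors with the subunits of Itgb1 and Itgb4. It fell from 20.1 and 19.0 FPKM in Control to 11.6 and 11.7 FPKM in iRhom1 KO, without overlap. Its log2 fold change was -0.72 (standard error 0.0652, 95% confidence interval -0.90 to -0.55, adjusted p = 0.00652 from limma), beside a median of -0.07 for the 815 tested genes of its chromosome. Itga5, the alpha subunit of the main fibronectin receptor, was at 3.48 and 3.86 FPKM in Control and at 3.63 and 2.77 FPKM in iRhom1 KO. The groups of Itga5 overlapped, and its interval ran from -0.55 to 0.20 (log2 fold change -0.18, adjusted p = 0.367 from limma).

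Of 24 known integrin pairs, 12 had a row for each subunit and 2 had both subunits tested. These were Itga6 with Itgb1, both lower, and Itga5 with Itgb1. The ratio of Itga6 to Itgb1 was 0.126 and 0.121 in Control and 0.0876 and 0.102 in iRhom1 KO. Itgb4, which pairs with Itga6 alone and anchors epithelial cells in hemidesmosomes, was at 0.220 and 0.215 FPKM in Control and at 0.571 and 0.528 FPKM in iRhom1 KO. It lay below the level required for testing, and its groups differed in the direction opposite to Itga6.

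Among the laminins the alpha chain gene Lama5 was higher and its partner chains were not called. Lama5 (chromosome 2, 180176373 to 180225859, minus strand) encodes the main alpha chain of adult epithelial basement membranes. It rose from 6.29 and 6.05 FPKM in Control to 8.17 and 8.76 FPKM in iRhom1 KO, without overlap (limma, log2 fold change 0.43 with a standard error of 0.0719, adjusted p = 0.0190). Dropping S17, S19 or S20 ended the call (adjusted p = 0.0589, 0.0802 and 0.0578 from limma), at log2 fold changes of 0.45, 0.40 and 0.38. The window of Lama5 is the only one of the 3 shown that carries GC boxes and E2-boxes, but that of Itgb5, called lower, held 1 E2-box and 3 GC boxes. A part of these letters in the differences was not tested.

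Lamb1 and Lamc1, the beta and gamma chains that most laminins share, stayed close to their Control level. Lamb1 was at 16.1 and 15.8 FPKM in Control and at 15.9 and 16.7 FPKM in iRhom1 KO, with overlap and an interval of the log2 fold change from -0.14 to 0.20. Lamc1 was at 16.1 and 15.5 FPKM in Control and at 14.99 and 15.21 FPKM in iRhom1 KO. Its interval ran from -0.23 to 0.10, although the groups did not overlap. Lamb2, a beta chain of vessel and nerve-muscle basement membranes, was at 7.01 and 7.30 FPKM in Control and at 5.39 and 6.21 FPKM in iRhom1 KO. Lamb2 did not pass the test (log2 fold change -0.28, interval -0.53 to -0.04, adjusted p = 0.0794 from limma). Its groups also did not overlap.
Of 12 known laminin trimers, 2 had all 3 chains tested, and each joins Lama5 and Lamc1 with Lamb1 or Lamb2. The ratio of Lama5 to Lamc1 was 0.390 and 0.391 in Control and 0.545 and 0.576 in iRhom1 KO. The ratio of Lamb2 to Lamb1 was 0.436 and 0.463 in Control and 0.339 and 0.372 in iRhom1 KO. The summed FPKM of the 8 laminin rows were 45.3 to 46.0 in Control and 45.3 to 47.7 in iRhom1 KO, so the ranges overlapped.

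The cadherins went both ways. Cdh26 (chromosome 2, 178430531 to 178487366, plus strand), an atypical cadherin known from inflamed epithelia, was at 24.1 and 24.6 FPKM in Control and at 55.1 and 54.5 FPKM in iRhom1 KO. Its groups were far apart, with means of 24.4 ± 0.351 and 54.8 ± 0.466 FPKM (SD, n = 2), and the mean of iRhom1 KO was 2.25 times that of Control. The log2 fold change was 1.15 (standard error 0.0572, 95% confidence interval 1.0 to 1.31, adjusted p = 0.00317 from limma), beside a chromosome median of -0.07. Its rank by size was 226 of the genes tested.
Cdh2 (chromosome 18, 16588877 to 16809246, minus strand), N-cadherin, was at 12.7 FPKM in each Control library and at 8.25 and 7.67 FPKM in iRhom1 KO. This is a log2 fold change of -0.64 (limma, standard error 0.0689, adjusted p = 0.00844).

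The remaining tested cadherins were not called. Cdh24, a classical-type cadherin that binds catenins, was at 1.79 and 2.11 FPKM in Control and at 1.32 and 1.48 FPKM in iRhom1 KO (log2 fold change -0.36, adjusted p = 0.0645 from limma). Cdh13, T-cadherin, which is held in the membrane by a lipid anchor, was at 1.36 FPKM in each Control library and at 1.32 and 1.37 FPKM in iRhom1 KO. The groups of Cdh13 overlapped (log2 fold change -0.01, interval -0.22 to 0.20), and those of Cdh24 did not. The ratio of Cdh26 to Cdh2 was 1.89 and 1.94 in Control and 6.68 and 7.10 in iRhom1 KO. Cdh26 held 60.1% of the summed FPKM of the cadherin rows in each Control library and 83.3% and 83.6% in iRhom1 KO. The summed FPKM were 40.2 and 41.0 in Control and 66.2 and 65.1 in iRhom1 KO.

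**Figure D3:**
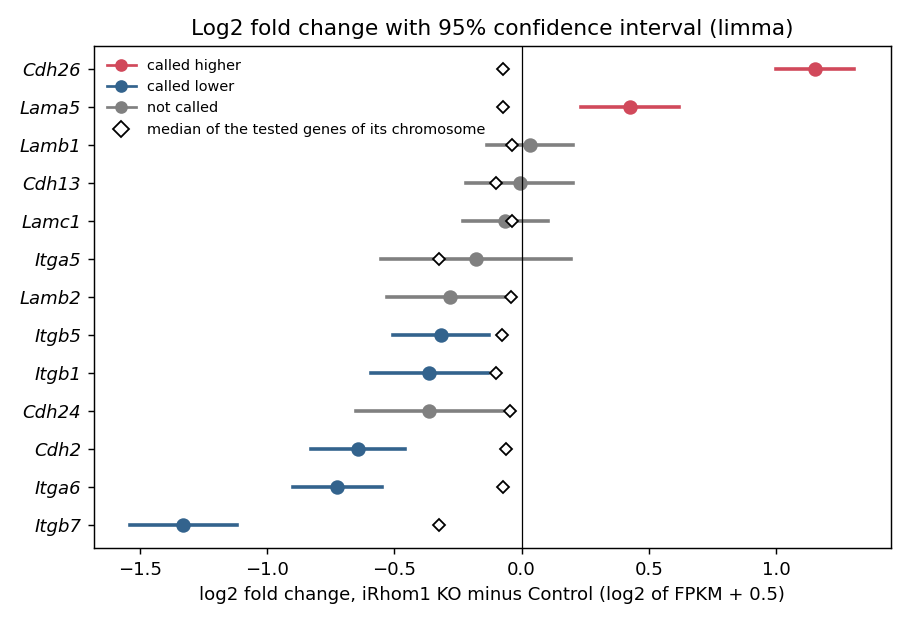
Log2 fold change of each tested member (iRhom1 KO minus Control, limma) with its 95% confidence interval, coloured by the call, and the median of the tested genes of its chromosome as a diamond. Cdh26 (1.15) and Lama5 (0.43) lie above 0, and Itgb7 (-1.33) lies below its chromosome's median of -0.32.

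The 21 members below 1 FPKM in both groups were not part of the test. Their groups did not overlap in 7 genes that were higher and 6 that were lower in iRhom1 KO, against 23.1% and 19.1% of the 11406 genes at such levels, and 8 overlapped. The genes without overlap include Itgb3 and Cdh11 (higher) and Itgax and Lamc3 (lower), whose means were under 0.1 FPKM in each group. Itgb3 was at 0 to 6.72 estimated fragments and Cdh11 at 1.71 to 4.79. In 11 of the 21 the mean was under 0.1 FPKM in each group, and no library of these exceeded 0.108 FPKM. These are Itga2, Itga4, Itga11, Itgax, Itgb3, Itgb6, Lama2, Lamc3, Cdh11, Cdh18 and Cdh23.

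In a fit without the filter on low values 3 of the 21 passed as higher and 1 as lower, where 2.21% and 1.63% of the 11406 genes did. All 4 are among the 10 members with a higher level than those just named. Itgb4, given above, was at 0.55 on the log2 scale (adjusted p = 0.0262 from limma without the filter). Its exons overlap those of the lincRNA B230344G16Rik on the other strand, which has no row, so a part of its reads cannot be judged. Itga7, the alpha subunit of a laminin receptor of muscle, was at 0.0764 and 0.0413 FPKM in Control and at 0.320 and 0.266 FPKM in iRhom1 KO (0.51, adjusted p = 0.0264 from limma without the filter). Its exons overlap those of Mettl7b on the other strand (Control 0.0304 and 0 FPKM, iRhom1 KO 0.335 and 0.112 FPKM), and no source states that strand was used, so reads of the 2 genes cannot be told apart.
Lama3 and Lamb3 are chains of the laminin that epithelial cells bind through hemidesmosomes. Lama3 was at 0.321 and 0.374 FPKM in Control and at 0.721 and 0.675 FPKM in iRhom1 KO (0.50, adjusted p = 0.0438 from limma without the filter). Exons of Lama3 overlap those of the antisense gene Gm29200, whose highest library value was 0.00667 FPKM. Lamb3 was at 0.182 and 0.195 FPKM in Control and at 0.0819 and 0.0846 FPKM in iRhom1 KO (-0.24, adjusted p = 0.0496 from limma without the filter). These chains of 1 trimer thus differed from Control in opposite directions. Of the epithelial markers with a row, the keratin genes Krt8 (0.0139 to 6.91 FPKM) and Krt18 (8.99 to 17.8 FPKM) were higher. Krt8 entered the test only through its level in iRhom1 KO. Krt20 was not called (10.4 to 12.4 FPKM, adjusted p = 0.147 from limma). The others were not tested: Cdx2 (0.0229 to 0.257 FPKM), Vil1 (0.00658 to 0.00817 FPKM) and Ocln (0.0203 to 0.00714 FPKM). The part of epithelial markers in the differences of these chains was not tested.

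The other low members did not pass in that fit. Itga2b, the alpha subunit of the platelet fibrinogen receptor, was at 0.133 and 0.135 FPKM in Control and at 0.260 and 0.235 FPKM in iRhom1 KO (0.24, adjusted p = 0.0690 from limma without the filter). Itga1, a collagen receptor subunit, was at 0.645 FPKM in each Control library and at 0.436 and 0.494 FPKM in iRhom1 KO (-0.25, adjusted p = 0.162 from limma without the filter), on chromosome 13, whose median was -0.36. Exons of Itga1 overlap those of the protein-coding gene Gm49395 on the same strand, which has no row, so a part of its reads cannot be judged. Itgb2, the beta subunit of leukocyte integrins, was at 0.588 and 0.605 FPKM in Control and at 0.441 and 0.587 FPKM in iRhom1 KO. Itgb8 ranged from 0.0624 to 0.114 FPKM and Cdh17, liver-intestine cadherin, from 0.0969 to 0.153 FPKM over the 4 libraries.

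**Figure D4:**
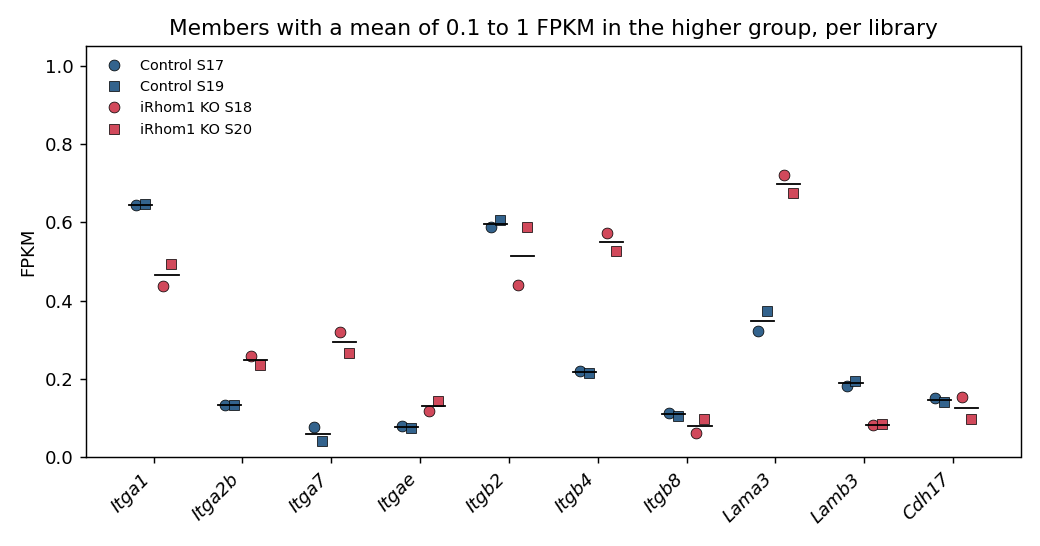
FPKM per library, on a linear axis, of the 10 members that lay below 1 FPKM in both groups and whose higher group mean was 0.1 FPKM or more. Points are libraries and bars are group means, and Itgb4, Itga7 and Lama3 lie higher and Lamb3 lower in iRhom1 KO, without overlap.

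Genes that work with the members were taken from lists. Of 24 tested genes that link integrins to actin and signalling, 2 were higher and 5 lower in iRhom1 KO. This is near the shares over all genes tested, 10.7% higher and 21.9% lower. The median log2 fold change was -0.13, against -0.10 over all genes tested. Lower were Ptk2, the focal adhesion kinase (10.9 to 5.32 FPKM, log2 fold change -0.98), Lims2 (-0.96) and Parvb (-0.93), partners of integrin-linked kinase, and Itgb1bp1 (-0.48), which binds the tail of the Itgb1 product and holds it inactive. Ptk2 and Parvb lie on chromosome 15, whose median was -0.32. Higher were Crk, an adaptor (11.4 to 24.0 FPKM, 1.04), and Tln1, the talin that activates integrins (24.4 to 38.1 FPKM, 0.63). The call of Tln1 was lost without S20 (0.50, adjusted p = 0.0525 from limma).

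Of 10 tested integrin ligands, 6 were higher and 2 lower (10.7% and 21.9% over all genes tested), with a median of 0.31. Vcam1, a ligand of integrins with the Itga4 product, was higher (9.45 to 15.9 FPKM, log2 fold change 0.72), as were the matricellular Ccn2 (0.63) and the collagen I chains Col1a1 (0.60) and Col1a2 (0.43). Icam1, the ligand of leukocyte integrins, was lower (3.53 to 0.244 FPKM, -2.44), but it entered the test only through its level in Control. Also lower was Mfge8 (-0.31), a ligand of integrins with the Itgav and Itgb5 products. The collagen I chains are also among the 5 fibroblast markers with a row, which summed to 39.4 to 43.0 FPKM in Control and 57.0 to 62.5 FPKM in iRhom1 KO. Most of that sum is Col1a2 itself (34.8 to 47.2 FPKM), so it is no separate measure. Of the other markers Acta2 was higher (0.467 to 4.72 FPKM), but it entered the test only through its level in iRhom1 KO. Dcn was not called (2.10 to 2.48 FPKM) and Pdgfra, not tested, was at 0.985 and 0.742 FPKM. The part of such markers was not tested. Leaving out S19, S18 or S20 ended the calls of Col1a1 (adjusted p = 0.0521, 0.0533 and 0.0796 from limma) and Col1a2 (adjusted p = 0.0844, 0.0505 and 0.0843 from limma). Leaving out S17, S19 or S20 ended that of Mfge8 (adjusted p = 0.124, 0.137 and 0.0695 from limma).

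Of 10 tested partners of laminins in the basement membrane, 4 were higher and 1 lower, with a median of 0.34. The shares over all genes tested were 10.7% and 21.9%. Higher were the collagen IV chain Col4a5 (6.46 to 13.4 FPKM, log2 fold change 0.996) and Col18a1 (1.004). So were the laminin-binding netrin Ntn4 (0.954 to 2.25 FPKM, 0.92) and the proteoglycan agrin, Agrn (0.53). Ntn4 was under 1 FPKM in Control and entered the test only through its level in iRhom1 KO. Nid1, which ties laminin to collagen IV, was at -0.30. Its call was lost when any 1 of the 4 libraries was left out (adjusted p = 0.0570 to 0.174 from limma), and with chromosome medians subtracted it was at 0.13 (chromosome 13, median -0.36). The call of Agrn was lost without S17, S18 or S20 (adjusted p = 0.0789, 0.0867 and 0.0704 from limma).

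Of 9 tested catenins and junction partners, 1 was higher and 3 were lower (10.7% and 21.9% over all genes tested), with a median of -0.03. Nectin2, an adhesion molecule of adherens junctions, was higher (5.27 to 10.5 FPKM, log2 fold change 0.93). Plakoglobin, Jup (-0.65), the actin-binding Lima1 (-0.49) and the cadherin-stabilising Ctnnd1 (-0.38) were lower. The call of Lima1 was lost without S17 or S20 (adjusted p = 0.0613 and 0.0566 from limma) and that of Ctnnd1 without S17, S19 or S20 (adjusted p = 0.125, 0.0825 and 0.0756 from limma). With the medians of chromosomes subtracted, Lima1, on chromosome 15, was at -0.15 (adjusted p = 0.194 from limma).

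Of 6 tested transcription regulators of cadherins, Twist2 was higher (log2 fold change 0.27) and Snai1, a repressor of E-cadherin, lower (2.30 to 1.21 FPKM, -0.72). Over all genes tested 10.7% were higher and 21.9% lower. The call of Twist2 was lost when any 1 of the 4 libraries was left out (adjusted p = 0.0547 to 0.170 from limma) and that of Snai1 without S18 or S20 (adjusted p = 0.0547 and 0.0522 from limma). From the list of iRhom and ectodomain shedding, Frmd8, which stabilises iRhoms at the cell surface, was lower (3.63 to 2.21 FPKM, log2 fold change -0.61, adjusted p = 0.0119 from limma).

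**Figure D5:**
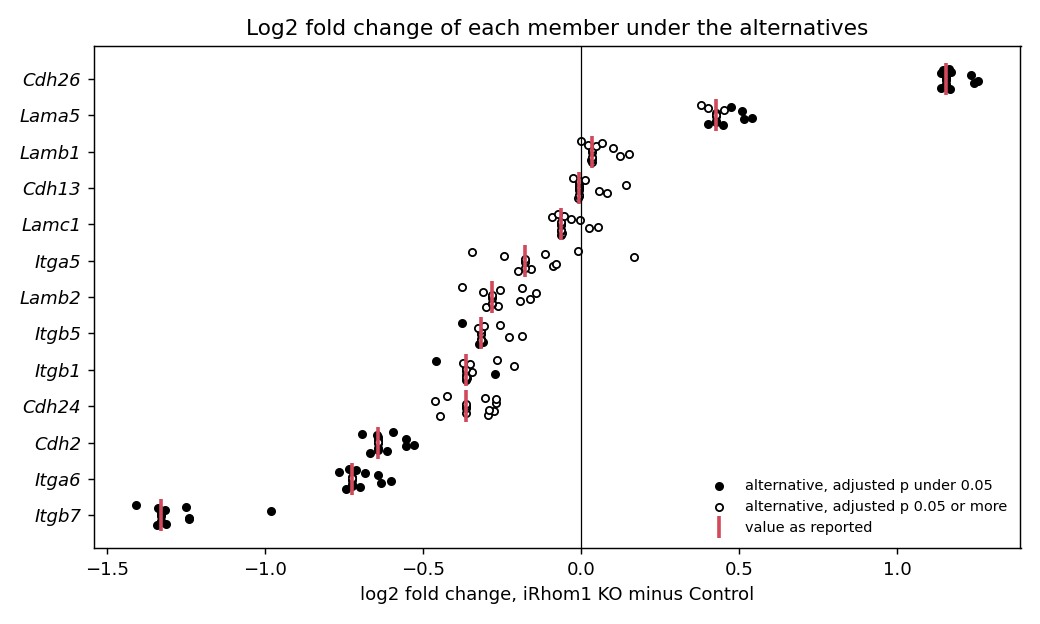
Log2 fold change of each tested member in the reported fit (red bar) and under the alternatives (points, filled where the adjusted p was under 0.05). Cdh26 and Itgb7 stay filled throughout, from 1.14 to 1.26 and from -1.41 to -0.98, and Itgb1, Itgb5 and Lama5 have open points.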

How the data were processed

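The deposited table holds FPKM per gene and library, which the authors made with HISAT2 and StringTie on GRCm38 (no versions or read counts are given in the sources used here, and no scaling beyond FPKM is stated). It also holds the authors' fold change (a ratio) and its log2, deposited as columns of their own comparison, which were not used. Columns carry library tags and a group, not the replicate numbers of the labels. The steps between low FPKM of genes with 1 transcript gave an estimate of 49700000 to 53500000 fragments for each library. This is rough, since 44.4% to 45.4% of the low values lay within 0.05 of a multiple of 0.5 steps, and fragments per member were estimated from the longest coding transcript.

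Of 21724 rows, 19 that name no gene were dropped and rows of 26 shared symbols were summed. Genes whose mean reached 1 FPKM in either group were tested on log2 of FPKM plus 0.5 with limma 3.58.1 (R 4.3.3, trend) over all genes, with Benjamini-Hochberg adjustment at 0.05, a step tested on simulated data. The named genes are all members and, per list, up to 4 called genes in each direction with the smallest p. Members and lists were chosen with earlier results of these data known. No chromosome was found for some symbols (21449 of 21677 had one). Alternatives changed the pseudocount (0.1 and 1), filter (none, or 5 FPKM), scaling (trimmed mean, quantile, chromosome medians), moderation (robust), minimum fold (1.5, treat), the row kept for shared symbols, and the libraries. Some genes of the families and lists are not reported here.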

Additional observations from a re-analysis of the deposited data

How the results depend on the processing

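Of 179 refits of the 13 tested members, 150 kept direction and call status, 21 lost the call and 8 changed sign. The 6 members not called had no call to lose, so all 21 losses fell on called members. Cdh26 and Itgb7 kept their calls in all 14 alternatives, and Itga6 and Cdh2 in all but the minimum fold of 1.5. With S18 or S20 left out even Cdh26 and Itgb7 passed only narrowly. A call of another gene lost in those refits therefore says little about that gene. The sign changed in 4 members that were not called and 1 list gene that was: Cdh13 (0.0818 with trimmed mean scaling, 0.0575 with quantile normalization, 0.143 with chromosome medians subtracted, and from -0.0263 to 0.0116 with a library left out), Lamc1 (0.0259 and 0.0540 with the first 2 of these), Itga5 (0.17 with chromosome medians subtracted), Lamb1 (-0.000947 to 0.0662 with a library left out) and, of the lists, Nid1 (0.13 with chromosome medians subtracted). Beside 2 higher and 5 lower members, there were 5 higher without the filter, 3 lower with quantile normalization, 3 lower with chromosome medians subtracted, and 1 higher and 1 lower with the minimum fold. With a library left out 1 to 2 members were higher and 3 to 4 lower. Over all genes (1096 higher, 2254 lower) there were 727 higher and 1666 lower with the filter of 5 FPKM, and 60 and 84 with the minimum fold. Trimmed mean scaling gave 1653 higher and 1710 lower, and quantile normalization 1605 higher and 1553 lower. With chromosome medians subtracted 1644 were higher and 1113 lower, and the median of all genes moved from -0.10 to 0.03. The excess of lower over higher genes thus depended on the scaling. With a library left out 561 to 745 were higher and 1096 to 1713 lower, and the lone library of a group was assumed to vary like the others. Itgb1 and Itgb5 also lost their calls without the filter (limma, adjusted p = 0.0742 and 0.0554) and under quantile normalization (limma, adjusted p = 0.0558 and 0.179), and Itgb5 under trimmed mean scaling (limma, adjusted p = 0.103). Of the 25 named genes of the lists, 14 kept their calls in all alternatives but the minimum fold, which 1 passed. The cause of these changes was not tested. No paired analysis was possible because the columns carry no replicate numbers. Read counts are unknown, and 2 libraries a group limit every call.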
